A study of Mus musculus with 6 samples.

Results

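The 9 genes described here encode proteins of the outer limiting membrane, the row of junctions that ties the apical processes of Muller glia to photoreceptors. They were taken by symbol (Crb1, Crb2, Pard3, Cdh2, Nectin1, Nectin3, Tjp1, Magi1 and Frmd4b), and all 9 were found among the 32285 genes of the count matrices. Nuclei came from retinas of B6.CXB1-Pde6b-rd10/J mice, in which saline and IL-27 groups alike carry the rd10 allele of Pde6b, the gene of a rod phosphodiesterase subunit, and lose their rods. Retinas received saline (3 libraries, replicates 1, 2 and 6) or 20 ng of recombinant IL-27 (3 libraries, replicates 4, 5 and 10) by intravitreal injection at P18 and were collected at P20. IL-27 is a cytokine that signals through Il27ra and gp130 to STAT3. No uninjected or wild-type retina was analysed here, and the labels do not say whether each library came from a separate animal, so p-values measure only the spread between these libraries.

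The outer limiting membrane is a belt of adherens junctions at the base of the photoreceptor inner segments. Muller glia and photoreceptors are held there by N-cadherin and nectins, whose tails are linked to actin by catenins and afadin, while the Crumbs and PAR complexes mark the apical side of the cell above the junction. Loss of Crumbs proteins breaks this belt and lets photoreceptor nuclei leave their layer, and mutations of human CRB1 cause inherited retinal degeneration. The study names Tjp1, Nectin3 and Frmd4b from these same libraries, so their values here are not independent evidence of a direction.

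After filtering and removal of doublets, 52271 nuclei were kept. Clusters were named from marker genes as rods (14319 nuclei), amacrine cells (AC, 12605), bipolar cells (BC, 10427), Muller glia (4768), cones (3336), retinal ganglion cells (RGC, 2199), microglia (1498), horizontal cells (HC, 494), astrocytes (294), endothelial cells (241) and pericytes (113). A further cluster of 662 nuclei was kept apart from Muller glia as ciliary-like. Of the 9 ciliary markers found, 7 were higher in these nuclei than in Muller glia. Gja1 was at 499 CPM, Zic1 at 467 CPM and Bmp4 at 120.1 CPM (a gene's UMIs scaled to the total of the summed nuclei), against 1.45, 11.9 and 0.561 CPM in Muller glia, while Col9a1, at 1159.8 against 1745 CPM, and Aqp1, at 1.32 against 1.78 CPM, were not higher. Of the 7 Muller markers, 6 were lower in these nuclei. Rlbp1 was at 37.1 against 343 CPM, Slc1a3 at 245 against 1228 CPM and Kcnj10 at 6.18 against 104.8 CPM. Glul, at 684 against 996 CPM, Dkk3, at 898 against 1455 CPM, and Clu, at 340 against 474 CPM, differed less. Vim was higher, at 95.4 against 58.5 CPM. The cluster thus also held 5 of 7 Muller markers when it was named. The astrocyte cluster was named on 3 of 5 astrocyte markers, and it also held 6 of 7 Muller and 3 of 9 ciliary markers. The part of Muller RNA in the astrocyte levels was not tested. A cluster of 1315 shallow nuclei with rod and Muller markers stayed unnamed. The libraries held 36678332 to 48260748 UMIs, and 322 of 51949 distinct barcodes occurred in more than 1 library.

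The ciliary-like nuclei were unevenly spread over the libraries. They were 20.1, 21.7 and 11.4% of Muller and ciliary-like nuclei together in saline replicates 1, 2 and 6, and 1.49, 0.717 and 12.4% in IL-27 replicates 4, 5 and 10. In nuclei this is 231, 220 and 101 against 12, 6 and 92, so IL-27 replicate 10 lay in the range of the saline libraries by share, and the other IL-27 libraries lay below it. Each gene is therefore given in Muller glia without ciliary-like nuclei, in ciliary-like nuclei, and in both together. The last is the class here nearest to the one that the study tested as Muller glia. The study named its nuclei by transfer from a reference atlas, so the nuclei of the 2 classes are not the same set. A sum over nuclei cannot tell fewer cells of a kind from less RNA per cell.

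The start regions of Tjp1, Nectin3 and Crb1 are shown because Tjp1 and Nectin3 gave the largest log2 fold changes of the list in the whole Muller class, in opposite directions, and Crb1 lay in Muller glia above every other class in 6 of 6 libraries. Each is RefSeq sequence of GRCm38.p6 from 250 bases before to 50 bases after the start, on the minus strand and written 5′ to 3′, at chr7:65371195-65371494 for Tjp1, chr16:46496918-46497217 for Nectin3 and chr1:139377027-139377326 for Crb1. Capitals mark TTCNNNGAA, the palindromic core of sites that STAT3 binds, which reads the same on both strands.
Tjp1: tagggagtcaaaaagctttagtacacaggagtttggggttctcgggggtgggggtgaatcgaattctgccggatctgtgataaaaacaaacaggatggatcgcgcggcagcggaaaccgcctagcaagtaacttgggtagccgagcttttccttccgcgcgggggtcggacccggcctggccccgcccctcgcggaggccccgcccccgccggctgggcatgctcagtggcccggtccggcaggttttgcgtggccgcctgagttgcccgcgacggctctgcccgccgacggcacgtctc
Nectin3: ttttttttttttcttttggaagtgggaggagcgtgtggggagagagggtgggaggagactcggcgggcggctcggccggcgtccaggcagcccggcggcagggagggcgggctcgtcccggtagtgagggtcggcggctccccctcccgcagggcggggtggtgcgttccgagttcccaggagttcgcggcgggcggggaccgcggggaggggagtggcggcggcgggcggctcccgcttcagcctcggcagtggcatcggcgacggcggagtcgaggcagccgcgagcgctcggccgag
Crb1: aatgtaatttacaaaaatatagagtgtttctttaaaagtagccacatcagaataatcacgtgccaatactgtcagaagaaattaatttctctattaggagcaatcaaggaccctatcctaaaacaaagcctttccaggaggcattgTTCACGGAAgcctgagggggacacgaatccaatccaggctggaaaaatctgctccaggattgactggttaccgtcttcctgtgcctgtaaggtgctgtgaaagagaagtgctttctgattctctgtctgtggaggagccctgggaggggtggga
The motif occurred once in the Crb1 window, starting at base 147, and in neither of the other windows printed. RefSeq windows were found for 7 of the 9 genes, 11 windows in all, of which 1 held the motif, against 8.30% of 32851 windows of the same length over all genes. A match is only a match of letters.

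The Crumbs genes had their highest levels in the cells of the junction (all levels are CPM, mean ± SD of 6 libraries). Crb1 (ENSMUSG00000063681), a transmembrane organizer of the apical domain, was highest in Muller glia at 1520.1 ± 59.3, followed by astrocytes at 319 ± 48.1, rods at 188 ± 21.3 and cones at 108 ± 13.4. The ranges of the 6 libraries did not overlap between neighbours in this order, but cones and ciliary-like nuclei, at 104 ± 56.4, could not be ordered. All other classes held Crb1 at 82.7 CPM or less. Crb2 (ENSMUSG00000035403), its paralog, was highest in rods at 49.7 ± 4.61, then in cones at 33.4 ± 3.48 and Muller glia at 29.1 ± 5.21. Cones and Muller glia overlapped, and rods lay above both in 6 of 6 libraries. Crb2 rests on 906 UMIs in rods and 620 in Muller glia, and Dennd1a overlaps it on the opposite strand in the GENCODE M21 annotation, as Gm30015 does Nectin1 and Gm15485 does Cdh2, so reads of such pairs may not be told apart.

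Pard3 and Cdh2 were more widely shared. Pard3 (ENSMUSG00000025812), a scaffold of the PAR complex, was highest in pericytes at 663 ± 195 and ciliary-like nuclei at 650.4 ± 41.3, which could not be ordered, followed by endothelial cells at 469.9 ± 79.9 and Muller glia at 466 ± 55.3, which could not be ordered either. Cones held Pard3 at 332 ± 55.2, rods at 172 ± 20.4 and microglia at 9.16 ± 4.10. Cdh2 (ENSMUSG00000024304), which encodes N-cadherin, was highest in Muller glia at 2371 ± 154, apart from astrocytes at 1539.9 ± 283. On the photoreceptor side Cdh2 was at 575 ± 74.7 in cones and 318 ± 15.6 in rods, and its lowest level was in microglia, at 60.7 ± 5.62.

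The nectins had their highest levels in different cells. Nectin1 (ENSMUSG00000032012), an immunoglobulin-like adhesion molecule, was highest in BC at 133 ± 10.2. Rods followed at 86.1 ± 8.35, cones at 73.3 ± 8.79 and AC at 68.8 ± 4.36, against 30.8 ± 5.49 in Muller glia. Not all neurons were high, as RGC were at 42.2 ± 2.92 and HC, the lowest of the 12 classes, at 10.3 ± 5.72. BC lay above all others. Rods lay above cones in 6 of 6 libraries, with overlapping ranges, and cones and AC could not be ordered. Nectin3 (ENSMUSG00000022656), which binds nectin-1 across the cell border, was highest in ciliary-like nuclei at 1175 ± 225, Muller glia at 236 ± 38.5 and astrocytes at 139 ± 28.4, against 64.9 ± 5.32 in rods and 40.8 ± 11 in cones. Ciliary-like nuclei lay 4.99 times above Muller glia in the mean and above them in 6 of 6 libraries, by 4.01 to 6.34 times. The lowest and highest of these ratios came from IL-27 replicates 4 and 5. Those libraries summed only 11 and 3 ciliary-like nuclei, with 34 and 15 Nectin3 UMIs.

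The scaffolds were each highest outside Muller glia. Tjp1 (ENSMUSG00000030516), which encodes ZO-1, a scaffold of tight and adherens junctions, was highest in endothelial cells at 1674 ± 213, followed by HC at 937 ± 57.4, rods at 769 ± 38.5 and AC at 694 ± 26.4. It was at 287 ± 55.1 in Muller glia and 170.3 ± 16.3 in cones, and rods lay above both in 6 of 6 libraries. Magi1 (ENSMUSG00000045095), a scaffold with several PDZ domains, was also highest in endothelial cells at 1425 ± 232, with 895 ± 117 in astrocytes, 582 ± 48.8 in Muller glia, 239 ± 8.85 in rods and 145 ± 16.7 in cones. Frmd4b (ENSMUSG00000030064), a FERM-domain scaffold, was highest in photoreceptors, at 1591 ± 117 in rods and 1102 ± 69.7 in cones, then in microglia at 813 ± 76.8 and Muller glia at 625 ± 77.8.

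**Figure D1:**
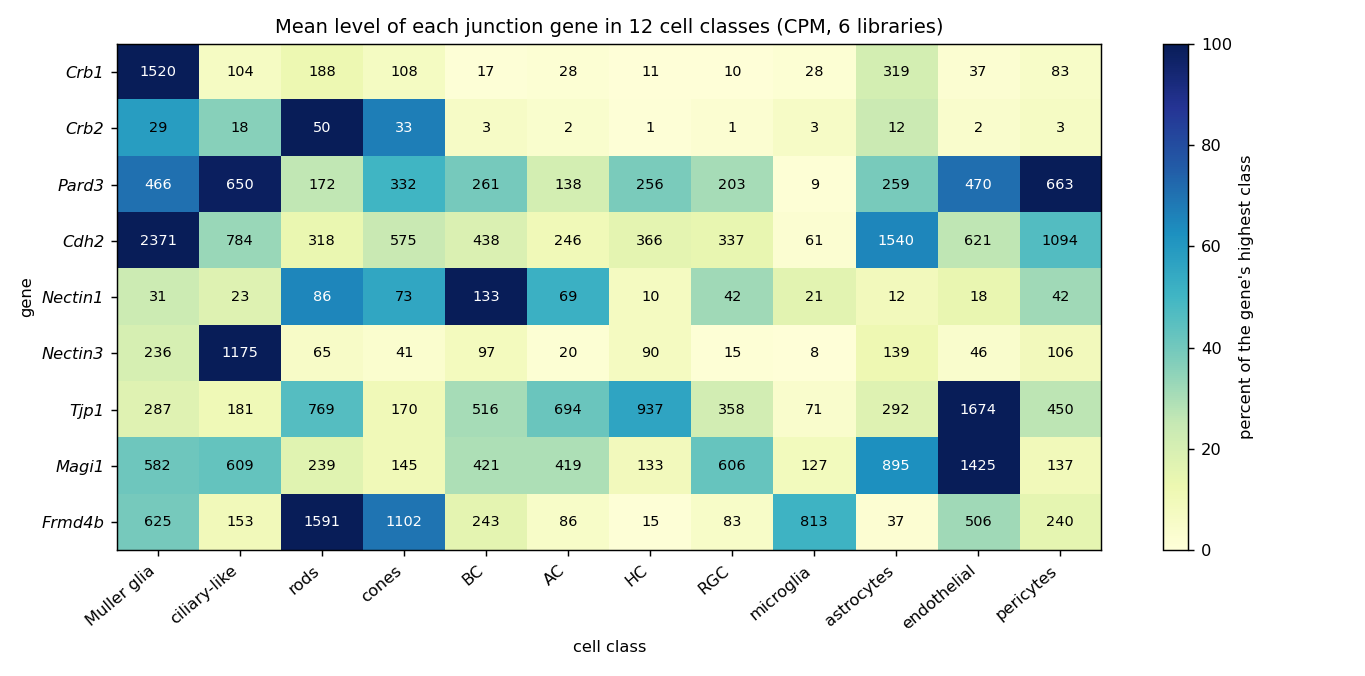
Mean CPM over 6 libraries of each of the 9 genes (rows) in 12 cell classes (columns). Crb1 and Cdh2 peak in Muller glia (1520.1 and 2371 CPM), Nectin3 in ciliary-like nuclei (1175 CPM), Frmd4b and Crb2 in rods, and Tjp1 and Magi1 in endothelial cells.

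Ciliary-like nuclei and Muller glia held these genes at different levels. Crb1, at 104 against 1520.1 CPM, Cdh2, at 784 ± 609 against 2371 ± 154 CPM, and Frmd4b, at 153 against 625 CPM, were lower in ciliary-like nuclei in 6 of 6 libraries. The Cdh2 mean holds 2017 CPM in IL-27 replicate 4, against 429 to 625 CPM in the other libraries. Nectin3 and Pard3 were higher in 6 of 6 libraries, Pard3 by 1.39 times. IL-27 replicates 4 and 5 summed only 11 and 3 ciliary-like nuclei. In replicate 5 these held 0 UMIs of Crb1, 1 of Frmd4b, 6 of Cdh2 and 6 of Pard3. Magi1, at 609 ± 139 against 582 ± 48.8 CPM, was higher in 4 of 6 libraries, within its spread. These are descriptions of clustered nuclei without a test, and the 9 genes and their partners were left out of the genes used for clustering.

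Over the 12 classes, Cdh2 and Pard3 had the most similar pattern of mean log2(CPM + 1) among the 9 (Pearson r = 0.83, n = 12 classes), followed by Crb1 with Crb2 (0.79), Nectin3 with Pard3 (0.71) and Nectin3 with Cdh2 (0.70), while Nectin1 with Nectin3 gave -0.29. Among 15431 genes with at least 10 CPM in a class, Nedd4 was nearest to both Pard3 (0.95) and Cdh2 (0.89), followed by Fermt2 and Spaca6 for Pard3 and by Dag1 and Tead1 for Cdh2. The nearest genes were Plekha4, Sox8 and D630033O11Rik for Crb1 (r = 0.90 to 0.91), Gm26801, Mtfr1 and Socs3 for Crb2 (r = 0.92 to 0.98), Fut2, Igsf21 and Tsnaxip1 for Nectin1 (r = 0.94) and Huwe1, Slc41a1 and Gask1a for Nectin3 (r = 0.86 to 0.91). Of the scaffolds, they were Tmem263, Mllt3 and Wdr59 for Tjp1 (r = 0.83 to 0.87) and Efr3b, Amot and Gm48094 for Magi1 (r = 0.89 to 0.96). The classes share libraries and differ in depth, and these values are descriptions.

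The comparison of IL-27 with saline asks whether the cytokine changed junction transcripts on either side of the membrane. In Muller glia without ciliary-like nuclei, Tjp1, Pard3 and Frmd4b lay higher in all 3 IL-27 libraries than in all 3 saline libraries, and the groups overlapped for the other 6 genes. None of the 9 passed the edgeR quasi-likelihood test at a Benjamini-Hochberg adjusted p of 0.05 over 13540 genes, of which 0.0369% were called. An unadjusted p under 0.05 was reached by 3 of the 9 and by 5.13% of all genes, and DESeq2 called 0 of the 9. The 3 genes without overlap stand beside 4.91% of all genes tested with every IL-27 library above and 5.63% with every saline library above. The median log2 fold change was 0.01 over the 9 and 0.00 over all genes.

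Tjp1 was at 241, 256 and 231 CPM in saline and 306, 307 and 378 CPM in IL-27 libraries. The lowest IL-27 library lay above the highest saline library, and the highest of all was IL-27 replicate 10. The log2 fold change was 0.44 (SE 0.10; edgeR adjusted p = 0.461). Pard3 was at 418, 435 and 407 CPM in saline and 495, 495 and 548 CPM in IL-27 libraries, with a log2 fold change of 0.29 (SE 0.09; edgeR adjusted p = 0.866). Frmd4b was at 556, 553 and 582 CPM in saline and 648, 659 and 754 CPM in IL-27 libraries, with a log2 fold change of 0.28 (SE 0.10; edgeR adjusted p = 0.903). For each of these genes IL-27 replicate 10 was the highest library, and the difference did not pass the test over all genes. That library had the fewest UMIs of the 6 (36678332), the lowest median UMIs per nucleus (2782) and the fewest summed Muller nuclei (606). The part of its depth in these values was not tested. Tjp1 and Frmd4b are higher in rods than in Muller glia, and the 7 rod markers summed to 353, 333 and 348 CPM in the saline and 328, 203 and 489 CPM in the IL-27 Muller nuclei, overlapping between groups with IL-27 replicate 10 the highest. Their part in the result was not tested.

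Crb1 was at 1579, 1536 and 1453 CPM in saline and 1521, 1584 and 1448 CPM in IL-27 libraries, a log2 fold change of -0.00 (SE 0.10). Cdh2 was at 2297, 2433 and 2353 CPM in saline and 2404, 2599.8 and 2136 CPM in IL-27 libraries, a log2 fold change of 0.01 (SE 0.11). For both of these genes, which have their highest level in Muller glia, the group means differed by less than the spread between libraries. Nectin3 was at 264, 242 and 247 CPM in saline and 255, 246 and 159 CPM in IL-27 libraries, where IL-27 replicate 10 alone lay below the rest (log2 fold change -0.18, SE 0.16). Crb2 (-0.17, SE 0.18), Nectin1 (-0.21, SE 0.18) and Magi1 (0.11, SE 0.11) gave edgeR adjusted p-values of 0.971 to 0.975.

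**Figure D2:**
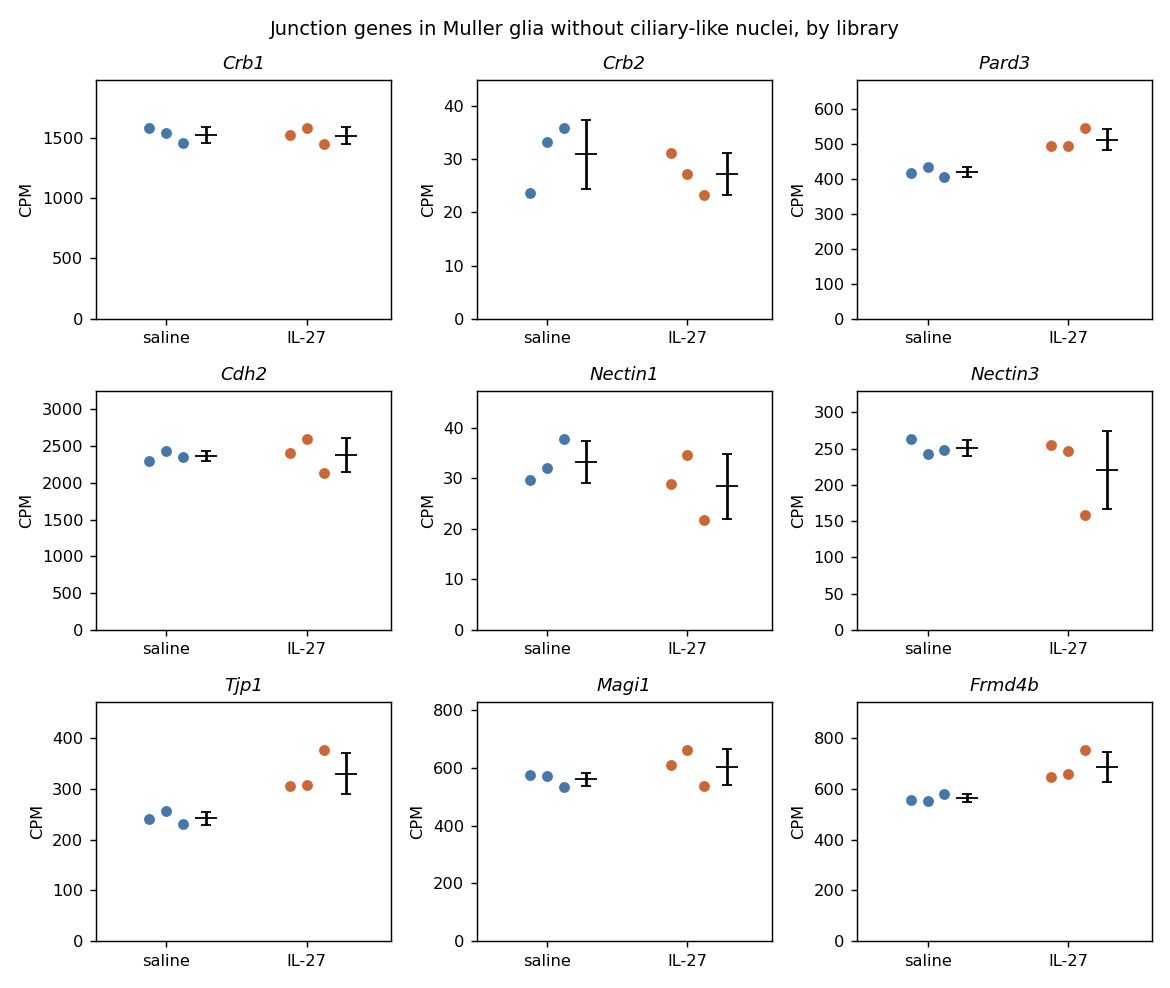
CPM of the 9 genes in Muller glia without ciliary-like nuclei, 1 panel per gene, with 1 point per library by group (saline and IL-27) and the mean ± SD of 3 libraries. Tjp1, Pard3 and Frmd4b have all IL-27 points above all saline points, and the points of the other 6 genes overlap.

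With ciliary-like nuclei added back, Tjp1 and Frmd4b again lay higher and Nectin3 lay lower in every IL-27 library. Nectin3 was at 411, 429.5 and 329 CPM in saline and 261, 249.7 and 235 CPM in IL-27 libraries, so the groups did not overlap. Its log2 fold change was -0.63 (SE 0.12; edgeR adjusted p = 0.144), against -0.18 without the ciliary-like nuclei. Of the Nectin3 UMIs of both kinds of nuclei, 45.1, 52.7 and 30.7% came from ciliary-like nuclei in saline replicates 1, 2 and 6, and 3.79, 1.59 and 38.3% in IL-27 replicates 4, 5 and 10. The share was thus above 30% in the saline libraries and in IL-27 replicate 10, and below 4% in the other IL-27 libraries.

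Tjp1 in the whole class was at 231, 241 and 226 CPM in saline and 307, 305 and 359.7 CPM in IL-27 libraries, with a log2 fold change of 0.50 (SE 0.10; edgeR adjusted p = 0.144). Frmd4b was at 493, 474 and 541 CPM in saline and 644, 657 and 701 CPM in IL-27 libraries, with a log2 fold change of 0.43 (SE 0.10; edgeR adjusted p = 0.207). Both fold changes were larger than without the ciliary-like nuclei. Pard3 also did not overlap between groups (0.21, SE 0.10; edgeR adjusted p = 0.584), and its fold change was smaller than without them. Crb1 (0.18, SE 0.11) and Cdh2 (0.17, SE 0.13) overlapped, and both are lower in ciliary-like nuclei.

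EdgeR called 0 of the 9 in the whole class, where 0.0286% of 13969 genes were called, and 3 of the 9 had an unadjusted p under 0.05, as did 9.14% of all genes. DESeq2 called these 3, with Tjp1 (adjusted p = 0.00958) and Frmd4b (DESeq2 adjusted p = 0.0363) higher and Nectin3 (DESeq2 adjusted p = 0.00346) lower, while it called 0.229% of all genes as higher and 0.494% as lower. Groups did not overlap for 3 of the 9 with IL-27 above and 1 with saline above, against 5.38 and 8.21% of all genes. The median log2 fold change was 0.17 over the 9 and 0.00 over all genes. Without IL-27 replicate 10, the IL-27 library with a share of ciliary-like nuclei like that of saline, edgeR called 4 of the 9, namely Tjp1 (log2 fold change 0.44), Frmd4b (0.42) and Cdh2 (0.29) as higher and Nectin3 (-0.57) as lower. In that fit 0.774% of all genes were called as higher and 2.19% as lower. Leaving out any other library gave no call among the 9. In Muller glia without ciliary-like nuclei, 0 of the 9 were called whichever library was left out.

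**Figure D3:**
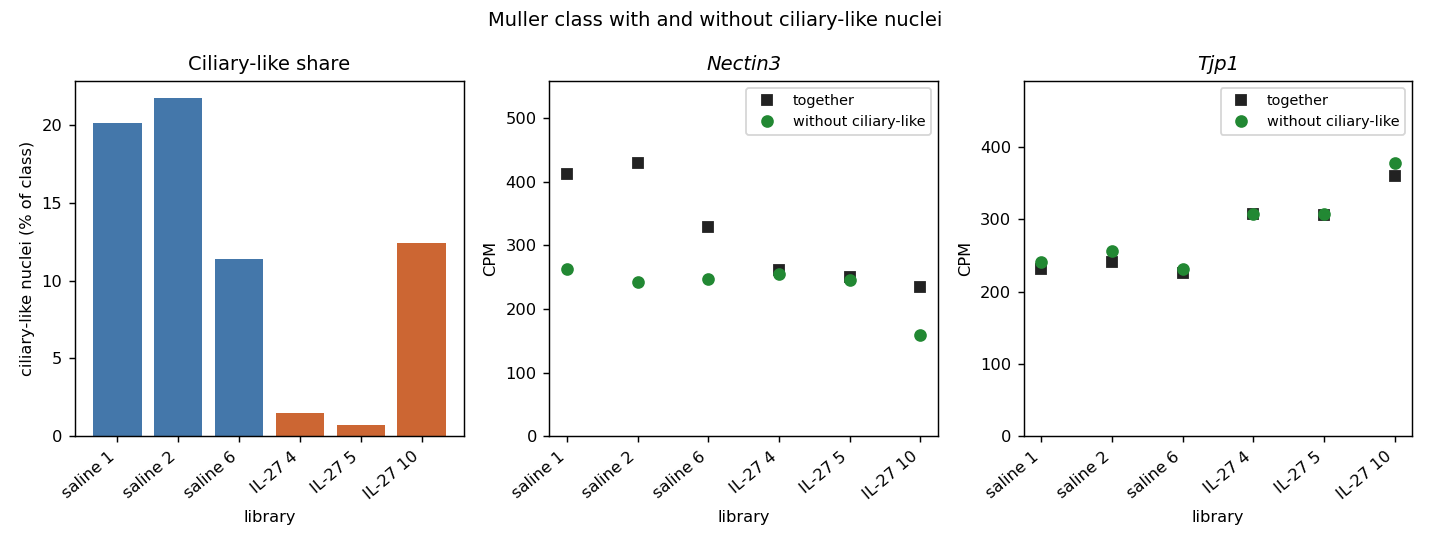
Ciliary-like nuclei as a percent of Muller and ciliary-like nuclei together in each of 6 libraries, beside CPM of Nectin3 and Tjp1 per library with and without the ciliary-like nuclei. Saline Nectin3 is 329 to 429.5 CPM with and 242 to 264 CPM without these nuclei, while Tjp1 is lower in saline libraries either way.

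Within the ciliary-like nuclei, 7 of the 9 genes passed the filter on low counts. EdgeR and DESeq2 called 0 of them, with 0 at an unadjusted p under 0.05 in edgeR, where 0.0175% of 5708 genes were called. Nectin3 was at 1233, 1226 and 1087 CPM in saline and 1023, 1563 and 919 CPM in IL-27 libraries, so the groups overlapped (log2 fold change -0.38, SE 0.31). Cdh2 was at 429, 586 and 582 CPM in saline and 2017, 625 and 466 CPM in IL-27 libraries, with only IL-27 replicate 4 standing apart (log2 fold change 0.72, SE 0.42). That library summed 11 ciliary-like nuclei. The 6 endothelial markers, of which Tie1 was at 0, summed to 246, 179 and 282 CPM in the saline and 1625, 313 and 676 CPM in the IL-27 ciliary-like nuclei, so all 3 IL-27 libraries lay above saline and replicate 4 was the highest. In Muller glia these markers summed to 1849.9 to 2076 CPM over the 6 libraries. Cdh2 was at 2371 CPM in Muller glia and 621 CPM in endothelial cells. The part of either class in the result was not tested. IL-27 replicate 5 summed 3 of its 6 ciliary-like nuclei, the others lying outside the depth limits, with 9597 UMIs, where Tjp1, Crb1, Crb2 and Nectin1 had no UMI, which allows up to 313 CPM (3 counts, counting error only). Without IL-27 replicate 10, which leaves only these small libraries in the IL-27 group, edgeR called Cdh2 as higher (log2 fold change 1.13, adjusted p = 0.0275), in a fit that called 0.924% of all genes as higher and 1.95% as lower. Without replicate 4 the log2 fold change of Cdh2 was -0.28.

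In rods, a photoreceptor side of the junction, the log2 fold changes of the 9 genes lay between -0.09 and 0.15. EdgeR called 0 of the 9 and 0.00768% of 13013 genes, with 0 of the 9 at an unadjusted p under 0.05 and 0 called by DESeq2. Frmd4b, which has its highest level in rods, was at 1583, 1580.3 and 1628 CPM in saline and 1663, 1715 and 1376 CPM in IL-27 libraries (log2 fold change -0.00, SE 0.10). Tjp1 was at 775, 757 and 706 CPM in saline and 761, 798 and 817 CPM in IL-27 libraries (0.09, SE 0.09), and Crb2 was at 47.1, 50.8 and 44.0 CPM in saline and 53.4, 46.5 and 56.2 CPM in IL-27 libraries (0.15, SE 0.13). The groups overlapped for each of these genes. Cdh2 alone did not overlap, at 308, 308 and 300.4 CPM in saline and 315, 337 and 337 CPM in IL-27 libraries (0.11, SE 0.09), where 4.04% of all genes had every IL-27 library above and 4.66% every saline library above.

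**Figure D4:**
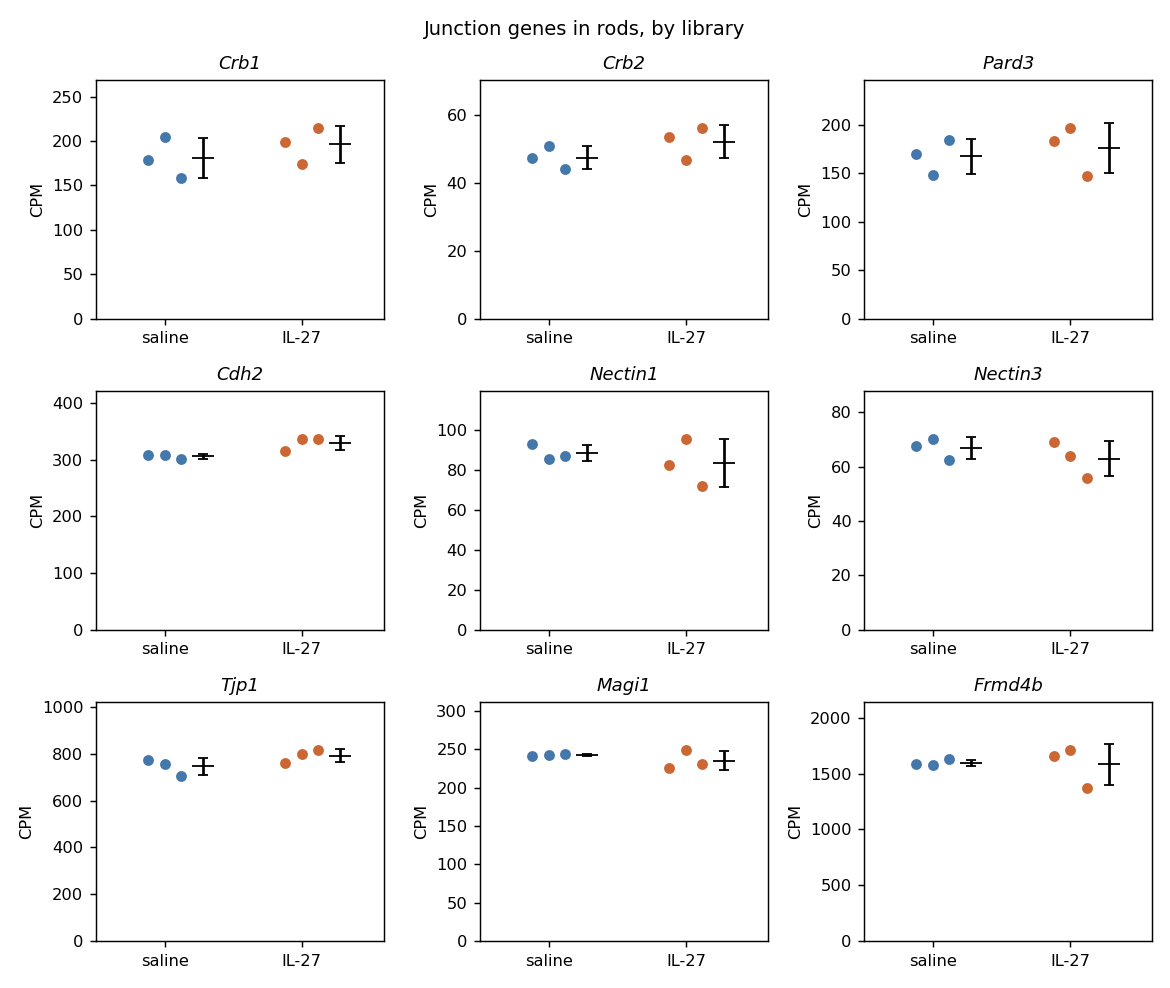
CPM of the 9 genes in rods, 1 panel per gene, with 1 point per library by group (saline and IL-27) and the mean ± SD of 3 libraries. Points of both groups overlap for 8 genes, and for Cdh2 the IL-27 points (315 to 337 CPM) lie above the saline points (300.4 to 308 CPM).

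In cones, edgeR called 0 of the 9 and 0% of 10713 genes, with 0 of the 9 at an unadjusted p under 0.05 and 0 called by DESeq2. Magi1 was at 123, 137 and 140.4 CPM in saline and 157, 141 and 170.3 CPM in IL-27 libraries (log2 fold change 0.24, SE 0.13), and Crb2 was at 35.9, 36.0 and 34.9 CPM in saline and 27, 31.7 and 34.7 CPM in IL-27 libraries (-0.19, SE 0.19). These were the 2 genes of the list whose groups did not overlap, Magi1 with IL-27 above and Crb2 with saline above, against 4.33 and 4.81% of all genes. Frmd4b (0.07, SE 0.12) and Tjp1 (-0.07, SE 0.13) differed by less than the spread between libraries.

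The difference between Muller glia and rods was fitted directly, as an interaction of cell class and treatment. The log2 fold change of Tjp1 was larger in Muller glia by 0.34 (SE 0.11; edgeR adjusted p = 0.799), and that of Frmd4b by 0.29 (SE 0.12; edgeR adjusted p = 0.953). Neither passed the test. EdgeR and DESeq2 called 0 of the 9, with 2 of the 9 and 5.17% of all genes at an unadjusted p under 0.05 in edgeR, and edgeR called 0% of 14907 genes. Pard3 gave 0.21, SE 0.14 and Crb2 -0.31, SE 0.20, and the remaining 5 genes lay between -0.14 and 0.13.

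**Figure D5:**
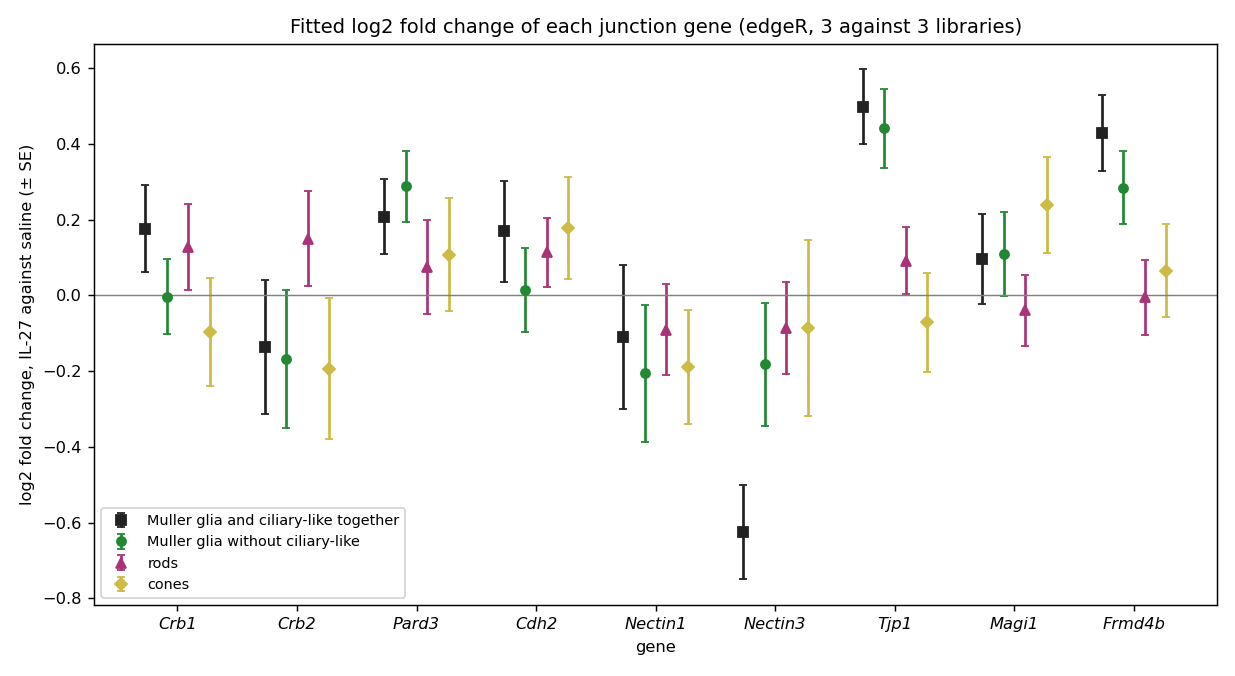
Log2 fold change of IL-27 against saline from edgeR, with SE, for the 9 genes in the Muller class with ciliary-like nuclei, Muller glia without them, rods and cones (3 against 3 libraries). Nectin3 is at -0.63 with and -0.18 without ciliary-like nuclei, and Tjp1 at 0.50 and 0.44.

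In the other 8 classes, edgeR and DESeq2 called 0 of the genes that passed the filter, and 0 had an unadjusted p under 0.05 in edgeR. All 9 were tested in BC and AC, where 0.00669 and 0.00591% of genes were called, 8 in RGC, 6 each in HC, microglia and astrocytes, 5 in endothelial cells and 4 in pericytes, where 0% were called. Tjp1 in endothelial cells, its highest class, was at 1819, 1820.0 and 1391 CPM in saline and 1649, 1910.0 and 1457 CPM in IL-27 libraries (log2 fold change -0.01, SE 0.21), and Magi1 there differed by -0.04, SE 0.22. Nectin1 in BC, its highest class, was at 137, 132 and 141 CPM in saline and 125, 144 and 117 CPM in IL-27 libraries (-0.07, SE 0.09). These groups overlapped. Frmd4b did not overlap in RGC (0.15, SE 0.10) or in microglia (-0.18, SE 0.15), in opposite directions, nor did Crb1 in astrocytes (-0.32, SE 0.20), none of which passed the test. Every IL-27 library lay above for 3.12, 4.33 and 5.37% of all genes in RGC, microglia and astrocytes, and every saline library for 5.63, 3.99 and 3.57%.

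A list of 41 partner symbols in 6 groups (Crumbs complex, PAR complex, nectins and afadin, catenins, tight junction scaffolds and JAMs, and FERM proteins) held 39 found in the matrices, as Pals1 and Nherf1 stand there as Mpp5 and Slc9a3r1. EdgeR called 0 of 35 tested in Muller glia, 0 of 26 in ciliary-like nuclei, 0 of 36 in both together, 0 of 35 in rods and 0 of 26 in cones. An unadjusted p under 0.05 was reached by 2, 2, 5, 1 and 1 of them in turn (5.71, 7.69, 13.9, 2.86 and 3.85%), against 5.13, 6.45, 9.14, 3.45 and 3.61% of all genes. DESeq2 called 1, Cgn in both kinds of Muller-class nuclei together. The median log2 fold change in Muller glia was -0.00 for the partners and 0.00 for all genes.

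The highest partner of each group in Muller glia did not pass the test. Magi3, a scaffold related to Magi1, was at 1489, 1510.4 and 1497 CPM in saline and 1444, 1513 and 961 CPM in IL-27 libraries, with replicate 10 alone below the rest (log2 fold change -0.19, SE 0.16). Pard3b, a paralog of Pard3 (-0.00, SE 0.11), Frmd4a, a paralog of Frmd4b (0.11, SE 0.10), and Afdn, which encodes afadin (-0.19, SE 0.13), overlapped between groups. Ctnnd1, which encodes p120-catenin, did not overlap (-0.08, SE 0.09), and neither did Lin7a, of the Crumbs complex, at 213, 231 and 243 CPM in saline and 262, 278 and 262 CPM in IL-27 libraries (0.22, SE 0.10; edgeR adjusted p = 0.955). Of the 39 partners found, 2 had every IL-27 library above in Muller glia and 1 had every saline library above. Of all genes tested there, 4.91 and 5.63% did. In rods and cones the highest were Magi2, Mpp4, Ctnna2, Afdn, Prkcz and Rdx, and none of them passed the test in either class. Mpp4, a photoreceptor partner of Crumbs, was at 766 ± 50.1 CPM in rods and 792 ± 50.4 CPM in cones.

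Cgn, which encodes the tight junction protein cingulin, was at 283 CPM in ciliary-like nuclei and 36.7 CPM in Muller glia, and higher in the former in 6 of 6 libraries. In both together it was at 97.9, 113 and 68.2 CPM in saline and 45.3, 33.7 and 45.4 CPM in IL-27 libraries (log2 fold change -1.15, SE 0.19; edgeR adjusted p = 0.104; DESeq2 adjusted p = 2.43e-05), and without the ciliary-like nuclei its log2 fold change was -0.28 (SE 0.21). Within the ciliary-like nuclei alone it was at 433, 418 and 315 CPM in saline and 151, 104 and 275 CPM in IL-27 libraries, without overlap (-0.86, SE 0.36; edgeR adjusted p = 0.686), where 5.34% of all genes had every IL-27 library above and 10.1% every saline library above. IL-27 replicates 4 and 5 summed only 11 and 3 of these nuclei, with 33221 and 9597 UMIs over all genes. Without IL-27 replicate 10, which leaves only those libraries in the IL-27 group, edgeR called Cgn as lower in these nuclei (log2 fold change -1.89, adjusted p = 0.0303). In both together edgeR called Cgn without IL-27 replicate 10 (edgeR adjusted p = 0.0111) and without a filter on low counts (edgeR adjusted p = 4.79e-05). Ezr, which encodes ezrin, was named with F11r after its values were seen. It was at 229 ± 249 CPM in ciliary-like nuclei, where the 3 nuclei of IL-27 replicate 5 gave 729 CPM, and 19.8 CPM in Muller glia, and its log2 fold change was -0.62 (SE 0.18) with and -0.09 (SE 0.18) without the ciliary-like nuclei. F11r, which encodes the adhesion molecule JAM-A, was at 18.4, 24.5 and 17.5 CPM in saline and 28.2, 35.0 and 40.1 CPM in IL-27 libraries in Muller glia, without overlap (0.77, SE 0.18; edgeR adjusted p = 0.399). Every IL-27 library lay above for 4.91% of all genes there. Without a filter on low counts edgeR called F11r in Muller glia (log2 fold change 0.76, adjusted p = 0.00458). That fit called 102 genes as higher and 18 as lower.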

How the data were processed

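Single-nucleus RNA-seq was analysed for 3 saline and 3 IL-27 libraries. The authors deposited raw UMI counts per gene and barcode; the submitters' notes name Cell Ranger 9.0.1 and Seurat 5.2.1, and the matrix header names Cell Ranger 8.0.1. The genome build is not given in the sources used here. A barcode was retained if it held more than 500 UMIs, 200 genes or more and a mitochondrial share below 5%, and doublets were removed with Scrublet in scanpy 1.11.5 (expected 8%; 3934 removed). Nuclei were clustered by Louvain (igraph 0.11.9; 2000 variable genes, 25 components, 20 neighbours, resolution 0.25) and named from markers, at least 3 of them found in 10% of nuclei; the rule that left 1 cluster unnamed was set after the clusters were seen. Counts were summed per library and class, except nuclei whose log2 depth lay beyond 2 MAD (median absolute deviation) of their class, and tested with edgeR 4.0.16 (R 4.3.3; quasi-likelihood, TMM, filterByExpr at 10 counts, Benjamini-Hochberg over all genes tested). The libraries held 36678332 to 48260748 UMIs, and limits at a count of 0 cover counting error only. The procedure was tested on simulated data. The planted changes there were larger than the log2 fold changes reported for the 9 genes. The simulation therefore does not show whether changes of their size are found. Named are the 9 genes, partners past the threshold or highest in their group in Muller glia, rods and cones, and the 3 genes most like each of the 9, except those of Frmd4b, which are not reported here. The genes, lists and markers were chosen with earlier results of these data known. Alternatives were DESeq2 1.42.0, other scalings and filters, other sets of nuclei, and leaving out each library.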

Additional observations from a re-analysis of the deposited data

How the results depend on the processing

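No paired analysis was possible because the saline libraries (1, 2 and 6) and the IL-27 libraries (4, 5 and 10) share no replicate numbers. Of 611 log2 fold changes of the 9 genes under an alternative, 571 kept their direction and side of the threshold, 10 passed the threshold and 30 changed sign, and the cause was not tested. In Muller and ciliary-like nuclei together, 3 genes were called by DESeq2, 2 without a filter on low counts and 0 to 4 when 1 library was left out; in ciliary-like nuclei it was 0 to 1. Of the partners, 1 (F11r) was called in Muller glia without a filter. In both together it was 1 by DESeq2 (Cgn), 2 without a filter (Cgn and Ocln) and 0 to 1 with a library left out (Cgn), as in ciliary-like nuclei. Ocln gave a log2 fold change of -2.46 there without a filter (edgeR adjusted p = 0.0213, both kinds of nuclei together). Over all genes, calls in both together went from 3 higher and 1 lower to 32 and 69 with DESeq2, 59 and 242 without a filter and 111 and 314 without IL-27 replicate 10; in Muller glia, 5 higher and 0 lower became 20 and 1 with DESeq2, 102 and 18 without a filter, and 0 to 10 and 0 to 2 with 1 library left out. In ciliary-like nuclei, 1 higher and 0 lower became 62 and 131 without IL-27 replicate 10. Log2 fold changes that changed sign were, in Muller glia, Crb1 at 0.0045 with a filter at 30 counts and 0.0014 without doublet removal; in ciliary-like nuclei, Crb1 at 0.11 with all nuclei, 0.011 without doublet removal and 0.22 under 1% mitochondrial counts; and in rods, Magi1 at 0.0097 with all nuclei. With 1 library left out, the ranges that crossed 0 were, in Muller glia, Nectin3 -0.31 to 0.0225, Crb1 -0.0463 to 0.0523 and Cdh2 -0.0654 to 0.11; in ciliary-like nuclei, Frmd4b -0.17 to 0.56, Crb1 -0.47 to 0.0841 and Cdh2 -0.28 to 1.13; in both together, Nectin1 -0.29 to 0.0729; in rods, Frmd4b -0.0651 to 0.10, Nectin1 -0.19 to 0.0199, Nectin3 -0.18 to 0.0119 and Pard3 -0.0113 to 0.20; and in cones, Tjp1 -0.17 to 0.0220, Frmd4b -0.0031 to 0.15, Nectin3 -0.32 to 0.22, Crb1 -0.19 to 0.0118 and Pard3 -0.13 to 0.21. Levels moved by over 1 SD in 21 of 1188 cases, 14 of them without doublet removal; the low-depth cluster kept with rods, an alternative chosen after seeing the data, changed no call, and library totals are the main scaling of levels and were not run again.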
